A study of Mus musculus with 8 samples.

Results

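The effector genes of the type I interferon response are 31 genes taken by name as a functional group, with earlier results of these data known, and each was found by its symbol among the 54018 gene identifiers of the table. RNA was measured in splenic mononuclear cells of leukaemic mice, with 4 libraries of Kdm1aKD;Eµ-TCL1A mice (called knockdown, replicates 1, 2, 5 and 4) and 4 libraries of Eµ-TCL1A mice (called control, replicates 1 to 4). All mice were C57BL/6 and carried the Eµ-TCL1A transgene, in which an immunoglobulin heavy chain enhancer drives the human oncogene TCL1A in B cells, a model of chronic lymphocytic leukaemia. The knockdown mice also carried a doxycycline-inducible construct that lowers Kdm1a, a demethylase of histone H3 lysine 4, and doxycycline was given after leukaemia had developed. The labels give neither the dose, its duration, the age of the mice nor whether the control mice received doxycycline, and no label says which animal a library came from. The p-values therefore speak of these libraries' spread, which may be technical in part. The comparison asks how transcripts of the leukaemic spleen differ when Kdm1a is lowered.

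Type I interferons bind a receptor of the chains IFNAR1 and IFNAR2, and the kinases JAK1 and TYK2 then phosphorylate the transcription factor STAT2. Together with IRF9 it is part of the factor ISGF3, which binds the interferon-stimulated response element (ISRE) in promoters and raises a large set of genes. The effectors among them bind or degrade viral RNA, attach the ubiquitin-like protein ISG15 to other proteins, hold virus at the membrane or feed back on the pathway, and most are also present at a basal level in unstimulated leukocytes.

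The deposited unit was FPKM, which divides fragments by transcript length and by library size and so lets genes be ranked by level. A gene was tested where 4 or more of the 8 libraries had 1 FPKM or more, which 30 of the 31 genes did. Of these, 24 reached 1 FPKM in all 8 libraries and 6 did so in fewer than 4 control libraries, so that they passed with the help of the knockdown libraries. Ifi44 was below the filter. Its FPKM were 0.559, 1.40, 1.73 and 0.498 in knockdown replicates 1, 2, 5 and 4, against 0.228, 0.0674 and 0.256 in control replicates 1 to 3, and it was listed at 0 in control replicate 4.

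The promoters were read to show what the group shares at its start sites. RefSeq promoter windows of GRCm38.p6, from 250 bases before to 50 bases after an annotated start, were matched for 23 of the 31 genes. The ISRE core was searched as TTTCNNTTTC or, on the other strand, GAAANNGAAA. At least 1 core lay in the windows of 10 of these 23 genes, and 13 had none in this window. Over all windows of the same length, 3.99% of 27025 genes had one. The gamma-activated site, a second kind of interferon-responsive element, was searched as TTCNNNGAA, which reads alike on both strands; it was found for 4 of the 23 genes (Isg20, Bst2, Ifi35 and Ifit2) and for 9.55% of all genes, and in Bst2 it overlaps an ISRE core. A match is a description of letters and not a bound site. The stretches around the cores are printed 5′ to 3′ on the strand of the gene, with the core bases in capitals.
Isg15 (chr4:156200863-156200908, minus strand): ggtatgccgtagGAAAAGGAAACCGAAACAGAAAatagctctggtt
Ifit1 (chr19:34640773-34640825, plus strand): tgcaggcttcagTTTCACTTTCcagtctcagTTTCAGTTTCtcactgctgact
Ifit3 (chr19:34583361-34583428, plus strand): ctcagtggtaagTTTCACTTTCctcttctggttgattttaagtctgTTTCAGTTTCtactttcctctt
Ddx60 (chr8:61928022-61928086, plus strand): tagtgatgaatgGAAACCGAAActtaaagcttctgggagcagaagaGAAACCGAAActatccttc
Bst2 (chr8:71537575-71537614, minus strand): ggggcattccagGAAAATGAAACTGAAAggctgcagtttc
Stat2 (chr10:128270264-128270297, plus strand): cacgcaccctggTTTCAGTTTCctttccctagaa
Slfn5 (chr11:82951935-82951968, plus strand): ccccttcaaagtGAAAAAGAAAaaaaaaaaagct
Rsad2 (chr12:26456551-26456584, minus strand): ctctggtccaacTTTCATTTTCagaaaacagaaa
Ifi203 (chr1:173942506-173942539, minus strand): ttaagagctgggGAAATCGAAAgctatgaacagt
Trim30a (chr7:104465208-104465241, minus strand): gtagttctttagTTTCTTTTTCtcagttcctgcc
Isg15 has 3 overlapping cores between 78 and 57 bases before its start, and Bst2 has 2 overlapping ones. Ifit1, Ifit3 and Ddx60 each have 2 separate cores. In Ifit1 and Ifit3 the capitals of both cores are the same letters in the same order, and both Ddx60 cores are identical to the middle core of Isg15. In the window of a second annotated start of Trim30a, a core lies 3 to 12 bases after that start and is not printed. Whether it is the printed core, seen from the other start, was not checked.

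**Figure D1:**
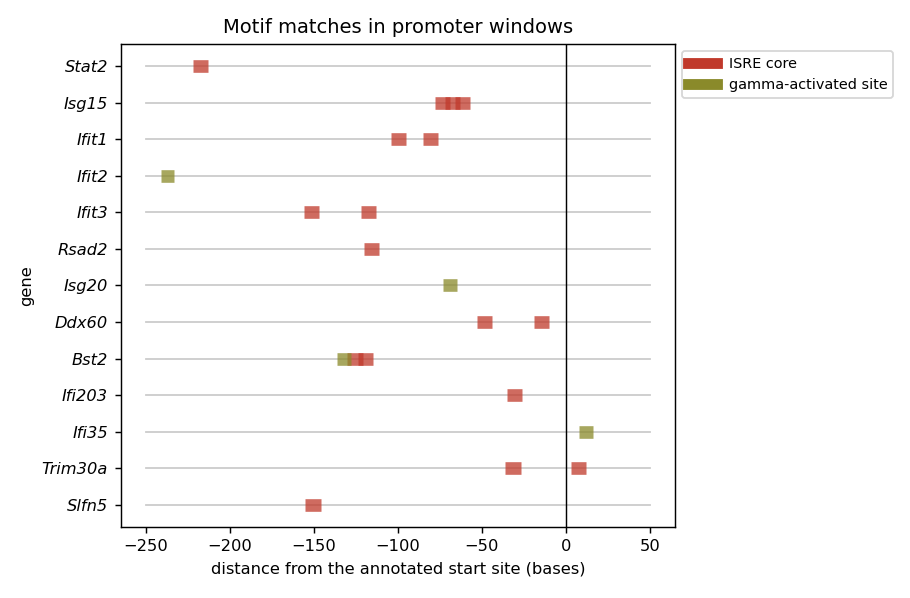
Positions of the ISRE core (red) and of the gamma-activated site (olive) in the promoter windows of the effector genes that hold either, in bases from an annotated start site (horizontal axis, 0 is the start), with 1 row per gene and all windows of a gene pooled. The 3 cores of Isg15 and both of Ifit1 lie within 104 bases before the start, while that of Stat2 begins at −222.

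Most effector genes lay higher in the knockdown libraries, but few passed a test over all genes. On log2(FPKM + 1), 27 of the 30 measured genes had a positive log2 change and 3 a negative one, with a median of 0.78, against a median of 0.13 over all 12890 genes tested, of which 63.7% were positive. Median-of-ratios scaling and quantile normalization moved the median of all genes to −0.01 and −0.03, and 26 of the 30 effector genes were then positive, with medians of 0.63 and 0.60. After limma with Benjamini-Hochberg adjustment over all genes, 2 of the 30 rose at an adjusted p under 0.05, Rtp4 and Parp12, and 0 fell; over all genes 1.63% rose and 0.109% fell. At an unadjusted p under 0.05, 18 of the 30 were higher (60.0%, against 15.8% of all genes) and 0 lower. All knockdown libraries lay above all control libraries for 14 of the 30 (46.7%, against 11.2% of all genes) and below them for 0 (1.9% of all genes). Both the 18 and the 14 include all 6 genes that passed the filter with fewer than 4 control libraries. They are Ifit1, Ifit3, Mx2, Ddx60, Parp12 and Ifi204. These 6 passed with the help of the knockdown libraries, which raises both shares. Of the 24 genes at 1 FPKM or more in every library, 8 separated the groups (33.3%, against 10.4% of the 11013 such genes). With Ifi44 in an unfiltered fit the median over the 31 was 0.80, and none of the 31 was called (2 of all 28861 genes were). The 2 calls depended on single libraries: 0 of the 30 were called without knockdown replicate 2, knockdown replicate 4 or control replicate 2, 3 or 4.

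**Figure D2:**
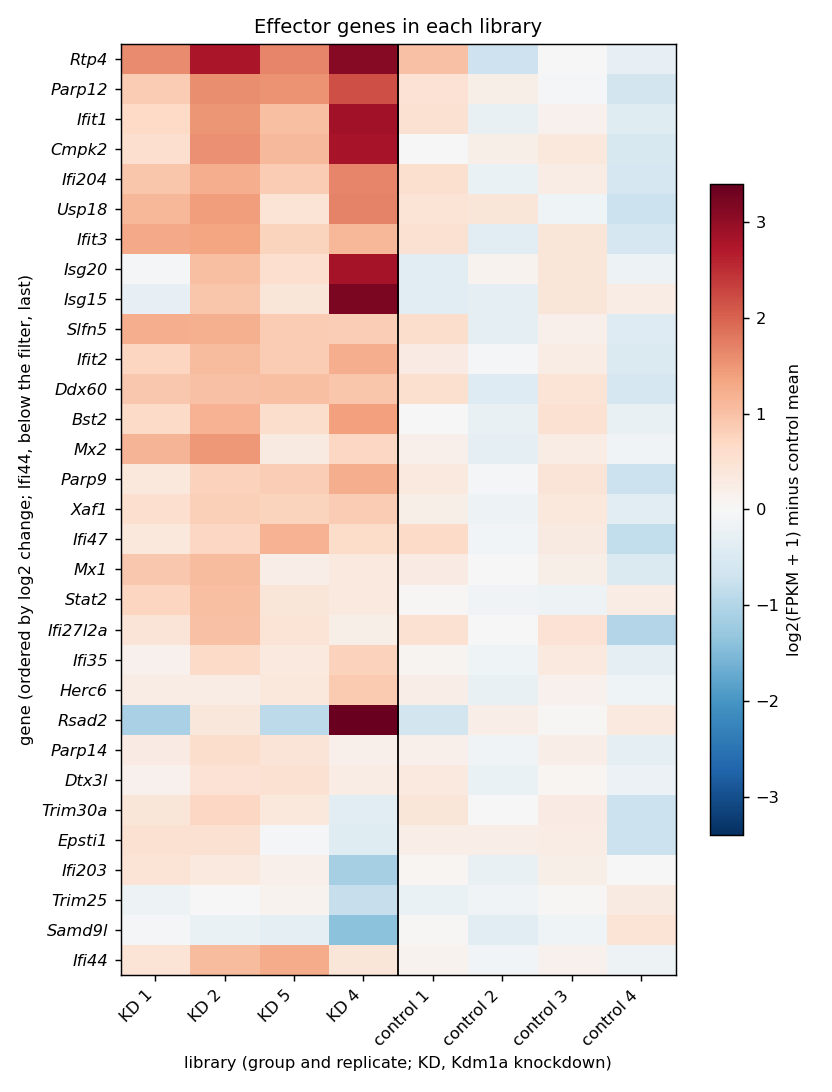
Each effector gene (rows, ordered by log2 change) in each library (columns, knockdown left of the line, control right), as log2(FPKM + 1) minus the mean of the 4 control libraries. Most rows are red in all knockdown columns; Isg15, Isg20 and Rsad2 are deep red only in knockdown replicate 4, and Trim25, Samd9l and Ifi203 are blue there.

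Other cell types moved with the groups. The summed FPKM of 20 monocyte and macrophage markers was 606 to 1090 in the knockdown libraries and 176 to 436 in the controls, without overlap. Lyz2 alone had 409, 257, 135 and 466 FPKM in knockdown replicates 1, 2, 5 and 4. It had 180, 78.3, 200 and 32.0 FPKM in control replicates 1 to 4. The mean log2 level of the list overlapped between groups, with 3.12 in knockdown replicate 1 and 3.21 in control replicate 2. Of the measured markers 18 of 18 had a positive log2 change, 0 were called, and none of the 20 was at 0 throughout. The libraries carried the B cell markers that leukaemic spleen of this model should hold: none of the 9 was at 0, and they summed to 1260 to 3290 FPKM across the knockdown libraries and 3510 to 4170 FPKM in the controls. In bulk RNA, more cells of a type and more RNA per cell cannot be told apart. With the monocyte and macrophage level as a covariate the median over the 30 effector genes was 0.43, 27 of 30 stayed positive and 0 were called (6 at an unadjusted p under 0.05, or 20%, against 6.84% of all genes); 0 of all 12890 genes were called in that fit. With the B cell level as a covariate the median was 0.71, and Rtp4 and Parp12 were both called. The 8 plasmacytoid dendritic cell markers summed to 50.1 to 73.3 FPKM in the knockdown libraries, against 27.7 to 53.6 FPKM in the controls. Sums of T cell, NK cell and conventional dendritic cell markers overlapped between the groups. In these lists 9 of 9, 6 of 6 and 7 of 8 markers had a positive log2 change (63.7% of all genes did), and 0 were called. Megakaryocyte markers summed to 20.7 to 64.0 FPKM in the knockdown libraries, against 6.66 to 14.6 FPKM in the controls, without overlap. Of the 5 measured markers, 4 had a positive log2 change and 2 were called higher. Ppbp was mostly lower, with 0.721 to 1.11 FPKM in the knockdown libraries, against 1.02 to 2.98 FPKM in the controls. Neutrophil markers summed to 20.7 to 154 FPKM in the knockdown libraries, against 70 to 460 FPKM in the controls, with 3 of 8 measured markers called lower. The part of these lists in the effector levels was not tested. The knockdown libraries held 94.9 to 175 FPKM of Xist, which silences the X chromosome in females; control replicate 1 held 110 FPKM and no other control more than 0.128 FPKM. Sex and group thus nearly coincided and can hardly be told apart. Against control replicate 1 alone, the knockdown mean was higher for 27 of the 30 genes. That count rests on 1 control library, and its share over all genes was not counted. With Xist as a covariate the median was 0.54, with 25 of 30 positive, 0 called and 1 at an unadjusted p under 0.05 (3.33%, against 4.9% of all genes, of which 2 were called).

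Kdm1a itself averaged 18.1 ± 2.96 FPKM across the knockdown libraries and 25.1 ± 4.19 FPKM in the controls (SD, n = 4 each). The groups did not overlap, by a narrow margin: knockdown replicate 2 had 21.04 FPKM and control replicate 2 had 21.18 FPKM. The knockdown mean of Kdm1a was 71.9% of the control mean. This difference did not pass the limma test over all genes (log2 change −0.45, adjusted p = 0.223). Tested by itself, Kdm1a had p = 0.0286 in an exact permutation test over the 70 assignments of libraries to groups. That is the smallest p this test can give with 4 libraries in each group. With the monocyte and macrophage covariate the log2 change of Kdm1a was −0.09. Estimated from the steps of low values, depth was 37200000 to 43700000 fragments per library.

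Among membrane and trafficking proteins, Rtp4 had the largest log2 change of all effector genes. It encodes a receptor-transporting protein first known as a chaperone of chemosensory and opioid receptors and also reported to curb the interferon response (ENSMUSG00000033355, chromosome 16, 23520291 to 23614222, plus strand, GRCm38). Rtp4 had 11.4, 26.8, 11.7 and 33.5 FPKM in knockdown replicates 1, 2, 5 and 4, against 6.99, 1.47, 3.06 and 2.31 FPKM in control replicates 1 to 4. Knockdown replicates 2 and 4 were high, and even the lowest knockdown library lay above control replicate 1, the highest control. The ratio of means was 6.03 and the log2 change 2.29 ± 0.44 (SE; adjusted p = 0.0352). Its adjusted p was 0.0647 without knockdown replicate 4 and up to 0.129 with another library left out. The Rtp4 gene span overlaps Masp1 on the opposite strand, and use of strand is not given in the sources used here.

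Bst2 encodes tetherin, which holds budding virus at the cell surface. Bst2 had 52.5, 76.2, 49.8 and 87.5 FPKM in the knockdown libraries, against 32.6, 27.5, 47.4 and 27.3 FPKM in the controls. The groups did not overlap, though knockdown replicate 5 and control replicate 3 were close. Its log2 change was 0.96 ± 0.25 (SE; adjusted p = 0.0956). Ifi27l2a, a small hydrophobic protein, was the most abundant effector transcript, with 209.9, 309, 216 and 178 FPKM in the knockdown libraries, against 223, 154, 221 and 77.5 FPKM in the controls. Its groups overlapped, with control replicates 1 and 3 above 3 of the knockdown libraries and control replicate 4 low (log2 change 0.52, 95% interval −0.25 to 1.29).

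The ADP-ribosyltransferases and their partner gave the other call. Parp12, a mono-ADP-ribosyltransferase that restricts virus replication (ENSMUSG00000038507, chromosome 6, 39086410 to 39118349, minus strand), had 3.20, 5.93, 5.62 and 9.65 FPKM in the knockdown libraries, against 2.24, 1.67, 1.22 and 0.488 FPKM in the controls. Every knockdown library was above every control, with knockdown replicate 1 nearest to them. The log2 change of Parp12 was 1.54 ± 0.32 (SE; adjusted p = 0.0497, just inside the threshold), and adjusted p ranged from 0.0256 to 0.154 when 1 library was left out. Parp9, an inactive family member that pairs with the ubiquitin ligase DTX3L, had 21.3, 29.0, 30.2 and 39.5 FPKM in the knockdown libraries, against 20.8, 15.9, 22.5 and 9.45 FPKM in the controls. Knockdown replicate 1 lay below control replicate 3, so the groups overlapped (log2 change 0.81, adjusted p = 0.179). Dtx3l, whose gene overlaps the start of Parp9 on the opposite strand, so that reads of the overlap cannot be told apart without strand, had 15.8 ± 2.05 FPKM across the knockdown libraries and 12.2 ± 2.43 FPKM in the controls (SD, n = 4 each; log2 change 0.36, adjusted p = 0.319). Parp14, a further ADP-ribosyltransferase on the same stretch of chromosome 16, had 15.1, 18.9, 16.9 and 13.9 FPKM in the knockdown libraries, against 13.8, 11.1, 14.5 and 9.71 FPKM in the controls (log2 change 0.38, adjusted p = 0.29). Neither Dtx3l nor Parp14 separated the groups.

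**Figure D3:**
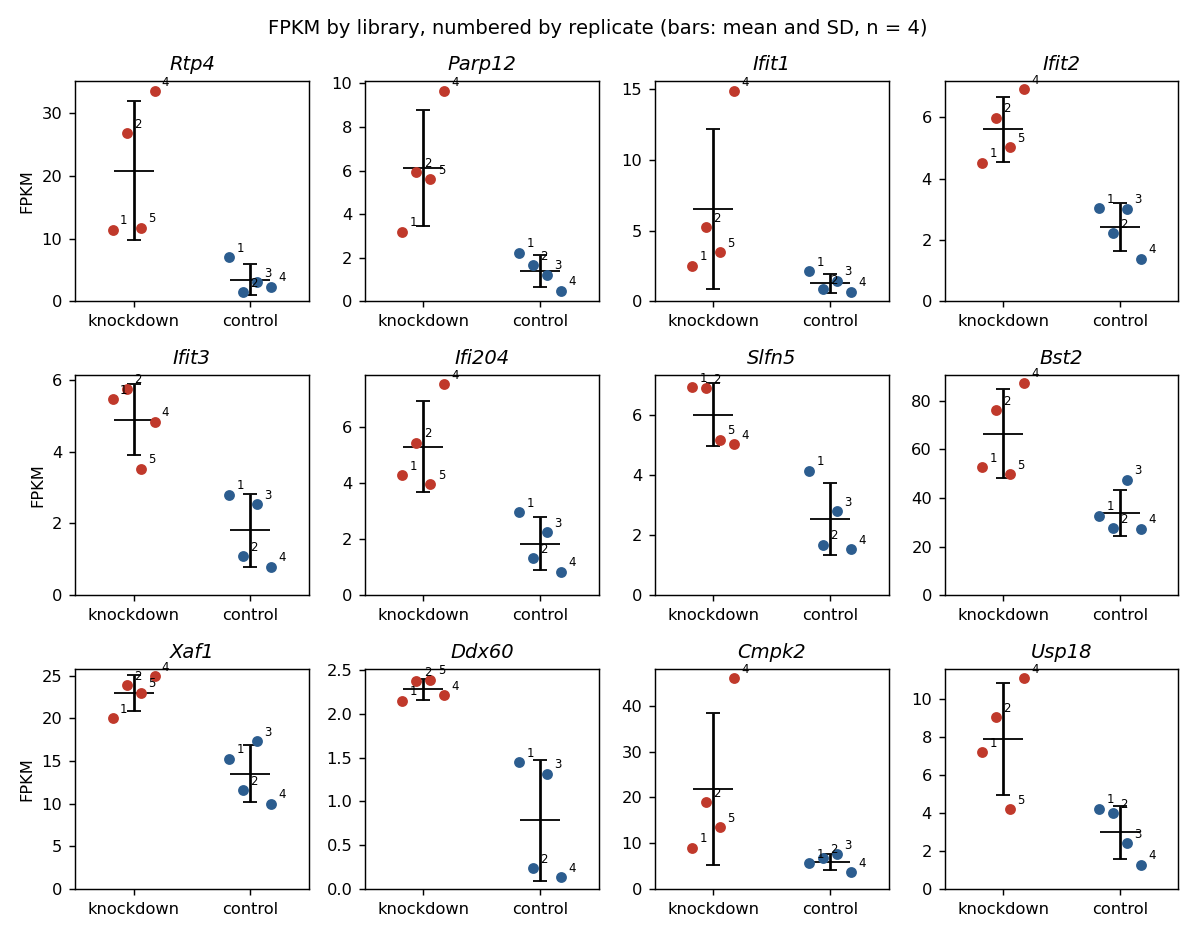
FPKM (vertical axes, from 0) of Rtp4, Parp12 and the next 10 effector genes by unadjusted p, in the 4 knockdown libraries (red, left) and the 4 control libraries (blue, right), numbered by replicate; horizontal bars are means and error bars SD (n = 4). All knockdown points lie above all control points in each panel but that of Usp18, where knockdown replicate 5 has 4.19 FPKM and control replicate 1 has 4.24 FPKM.

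The IFIT proteins bind viral RNA that lacks host cap methylation or act with those that do. None of the 3 measured genes passed the threshold. All 3 separated the groups, as 11.2% of all genes did. However, Ifit1 and Ifit3 are among the genes that passed the filter with the help of the knockdown libraries. Ifit1 had 2.53, 5.25, 3.48 and 14.9 FPKM in the knockdown libraries, against 2.14, 0.842, 1.45 and 0.670 FPKM in the controls (log2 change 1.51, adjusted p = 0.124). Ifit2 had 4.52, 5.98, 5.03 and 6.90 FPKM in the knockdown libraries, against 3.03, 2.21, 3.01 and 1.39 FPKM in the controls (log2 change 0.97, adjusted p = 0.0648). Ifit3 had 5.47, 5.76, 3.53 and 4.84 FPKM in the knockdown libraries, against 2.81, 1.09, 2.54 and 0.793 FPKM in the controls (log2 change 1.13, adjusted p = 0.0812). In Ifit1 knockdown replicate 4 stood far above the others, which it did not in Ifit2 or Ifit3, and control replicate 4 was the lowest library for all 3. The 3 genes are neighbours on chromosome 19. Of the 75-base words of the longest Ifit3 transcript 41.1% also occur in Ifit3b, which was listed at 0.607 to 1.26 FPKM across the knockdown libraries and 0.134 to 0.478 FPKM in the controls, so fragments of both may have been exchanged.

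The Mx genes encode dynamin-like GTPases that block virus nucleocapsids; in C57BL/6 mice the Mx1 gene carries a deletion and makes no active protein. Mx2 had 2.98, 3.96, 1.21 and 1.92 FPKM in the knockdown libraries, against 1.004, 0.446, 1.12 and 0.659 FPKM in the controls. Its groups did not overlap, with the highest levels in knockdown replicates 1 and 2 (log2 change 0.91, adjusted p = 0.13). Mx1 had 5.58, 6.45, 3.07 and 3.41 FPKM in the knockdown libraries, against 3.25, 2.54, 3.04 and 1.48 FPKM in the controls. The same knockdown replicates 1 and 2 were high, but knockdown replicate 5 lay below control replicate 1 (log2 change 0.64, adjusted p = 0.233).

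Of the genes of signalling and feedback, Stat2, the ISGF3 subunit particular to type I and type III signalling, had 27.2, 33.1, 21.4 and 20.2 FPKM in the knockdown libraries, against 16.4, 14.6, 14.0 and 19.2 FPKM in the controls. The groups did not overlap, but knockdown replicate 4 and control replicate 4 differed little (log2 change 0.62, adjusted p = 0.151). Usp18, the protease that removes ISG15 and blocks the receptor chain IFNAR2, had 7.202, 9.06, 4.19 and 11.1 FPKM in the knockdown libraries, against 4.24, 4.003, 2.42 and 1.28 FPKM in the controls. Knockdown replicate 5 lay among the controls (log2 change 1.17, adjusted p = 0.124).

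ISG15 conjugation was measured through its modifier, enzymes and ligases, and none of these genes passed. Isg15, the ubiquitin-like modifier, had 15.4, 36.9, 25.2 and 181 FPKM in the knockdown libraries, against 14.2, 15.2, 25.5 and 22.8 FPKM in the controls. Knockdown replicate 4 stood far above the rest, knockdown replicate 2 lay above every control too, and the other knockdown libraries lay among the controls (log2 change 1.06, 95% interval −0.35 to 2.48; 0.35 without knockdown replicate 4). Herc6, the main ISG15 ligase of the mouse, had 8.80, 8.77, 9.67 and 14.3 FPKM in the knockdown libraries, against 8.74, 5.97, 8.14 and 6.48 FPKM in the controls. Its groups were separated only by the small step between knockdown replicate 2 and control replicate 1 (log2 change 0.44, adjusted p = 0.281), and 22.4% of its 75-base words also occur in the overlapping Gm45193. Trim25, a ligase best known for its action on the RNA sensor RIG-I, had 32.3, 36.4, 40.1 and 20.8 FPKM in the knockdown libraries, against 31.01, 33.9, 37.6 and 45.8 FPKM in the controls, and knockdown replicate 4 was the lowest library (log2 change −0.21, adjusted p = 0.621). The activating enzyme gene Uba7 had 92.5 ± 20.4 FPKM across the knockdown libraries and 67.1 ± 19.6 FPKM in the controls (SD, n = 4 each; log2 change 0.47, adjusted p = 0.326). Ube2l6, the conjugating enzyme gene, had 26.7, 61.6, 46.5 and 258 FPKM in the knockdown libraries, against 23.1, 51.4, 49.1 and 36.1 FPKM in the controls. Like Isg15 it was highest in knockdown replicate 4, and knockdown replicate 2 also lay above every control.

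Enzymes of nucleotides and RNA differed in how the libraries lay. Cmpk2, a mitochondrial nucleotide kinase, had 8.98, 18.9, 13.5 and 46.0 FPKM in the knockdown libraries, against 5.66, 6.77, 7.61 and 3.63 FPKM in the controls. Every knockdown library lay above every control (log2 change 1.51, adjusted p = 0.123). Rsad2 encodes viperin, which turns CTP into a chain terminator of viral polymerases, and lies 12751 bases from Cmpk2 in the opposite orientation. Rsad2 had 3.12, 10.5, 3.77 and 89.05 FPKM in the knockdown libraries, against 4.76, 9.39, 8.14 and 10.05 FPKM in the controls. Knockdown replicates 1 and 5 were the lowest of all libraries and knockdown replicate 4 the highest, so the sign of its log2 change of 0.44 turned without that library (−0.53). Isg20, an exonuclease of single-stranded RNA, had 39.2, 83.1, 60.7 and 296 FPKM in the knockdown libraries, against 31.7, 44.4, 54.0 and 35.9 FPKM in the controls. Knockdown replicate 1 lay among the controls (log2 change 1.09, 95% interval −0.09 to 2.27; 0.51 without knockdown replicate 4). Ddx60, a helicase of the RIG-I pathway, had 2.15, 2.37, 2.39 and 2.21 FPKM in the knockdown libraries, against 1.44, 0.236, 1.32 and 0.130 FPKM in the controls. Its knockdown libraries were nearly level while the controls fell into a higher pair, replicates 1 and 3, and a lower one (log2 change 0.97, adjusted p = 0.122).

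The p200 proteins bind DNA in the nucleus and cytoplasm. Ifi204, a sensor of viral DNA, had 4.28, 5.44, 3.96 and 7.53 FPKM in the knockdown libraries, against 2.97, 1.32, 2.24 and 0.839 FPKM in the controls, without overlap (log2 change 1.18, adjusted p = 0.0739). Ifi203, far more abundant, had 109, 101, 90.05 and 36.0 FPKM in the knockdown libraries, against 83.3, 66.1, 92.1 and 78.7 FPKM in the controls. Knockdown replicate 4 was the lowest library, and the log2 change of −0.04 became 0.32 without it. Of the 75-base words of the longest Ifi204 transcript, 20.7% also occur in other genes, most of them in Ifi211.

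Of the 8 other effectors, 7 were measured, 6 with a positive log2 change, and none passed. Slfn5, a Schlafen protein of nuclear transcription control, had 6.90, 6.88, 5.16 and 5.005 FPKM in the knockdown libraries, against 4.13, 1.67, 2.80 and 1.52 FPKM in the controls (log2 change 1.03, adjusted p = 0.0801). Xaf1, a promoter of apoptosis that binds XIAP, had 20.02, 23.9, 23.0 and 24.9 FPKM in the knockdown libraries, against 15.3, 11.5, 17.3 and 9.97 FPKM in the controls (log2 change 0.75, adjusted p = 0.0967). Both separated the groups. Ifi47, a GTPase of the p47 family, and Ifi35, a partner of the signalling protein NMI, had log2 changes of 0.72 and 0.48 with overlapping groups (adjusted p = 0.258 and 0.249). Trim30a, a negative regulator of NF-kB signalling, and Epsti1 had log2 changes of 0.28 and 0.15, the second turning to −0.01 after median-of-ratios scaling, and in both control replicate 4 was the lowest library. Samd9l, a repressor of translation and cell growth, had 89.2, 79.05, 75.2 and 34.8 FPKM in the knockdown libraries, against 95.2, 73.0, 83.8 and 130 FPKM in the controls. It had the lowest log2 change of the 30, −0.50 (95% interval −1.19 to 0.19), with knockdown replicate 4 the lowest library and control replicate 4 the highest.

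**Figure D4:**
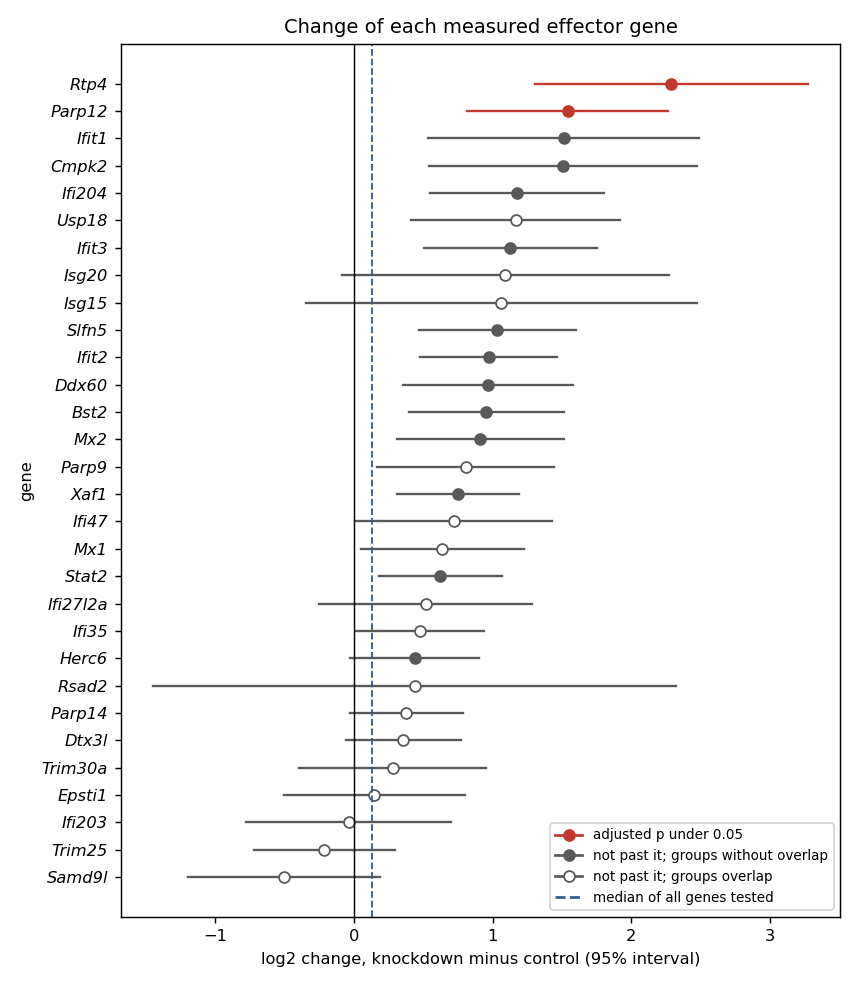
Log2 change (horizontal axis, knockdown minus control on log2(FPKM + 1)) with its 95% interval for the 30 measured effector genes, ordered by size; red marks an adjusted p under 0.05, filled points groups without overlap, and the dashed line the median of 0.13 over all genes tested. Only the top 2 genes are red, 27 points lie right of 0, and the intervals of Rsad2, Isg15 and Isg20 are among the widest.

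Knockdown replicate 4 split the effector genes. It was the highest of the 8 libraries for 15 of the 30, a share not counted over all genes, and the lowest for Trim25, Samd9l and Ifi203. Relative to the mean of the other 3 knockdown libraries it held 15.4 times as much Rsad2, 7.005 times as much Isg15, 4.85 times as much Isg20, 3.96 times as much Ifit1 and 3.33 times as much Cmpk2, but 0.98 times as much Ifit3, 0.68 times as much Mx1 and 0.36 times as much Ifi203. Ube2l6 was 5.74 times as high there. The same library had the highest sum of 12 erythroid markers, 29700 FPKM, and the lowest sum of B cell markers, 1260 FPKM. The erythroid sum was 963, 2670 and 1340 FPKM in knockdown replicates 1, 2 and 5 and 2920 to 7900 FPKM in the controls. Its markers did not move alike: 7 of 12 had a positive log2 change and 1 was called higher. Gata1 had 21.2 to 130 FPKM in the knockdown libraries, against 5.46 to 6.77 FPKM in the controls. Hbb-bs had 319, 717 and 629 FPKM in knockdown replicates 1, 2 and 5, against 1530 to 4810 FPKM in the controls. With the erythroid level as a covariate, an alternative chosen after the values were seen, 5 of the 30 were called higher: Cmpk2, Rtp4, Parp12, Ifit1 and Ifit2. Over all genes that fit called 541 higher (4.2%), against 210 without the covariate. In that fit Isg15 had a log2 change of 0.64 and Rsad2 one of −0.16. Without knockdown replicate 4 the median over the 30 genes was 0.71, 27 were positive and 15 separated the groups (50%, against 12.8% of all genes).

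**Figure D5:**
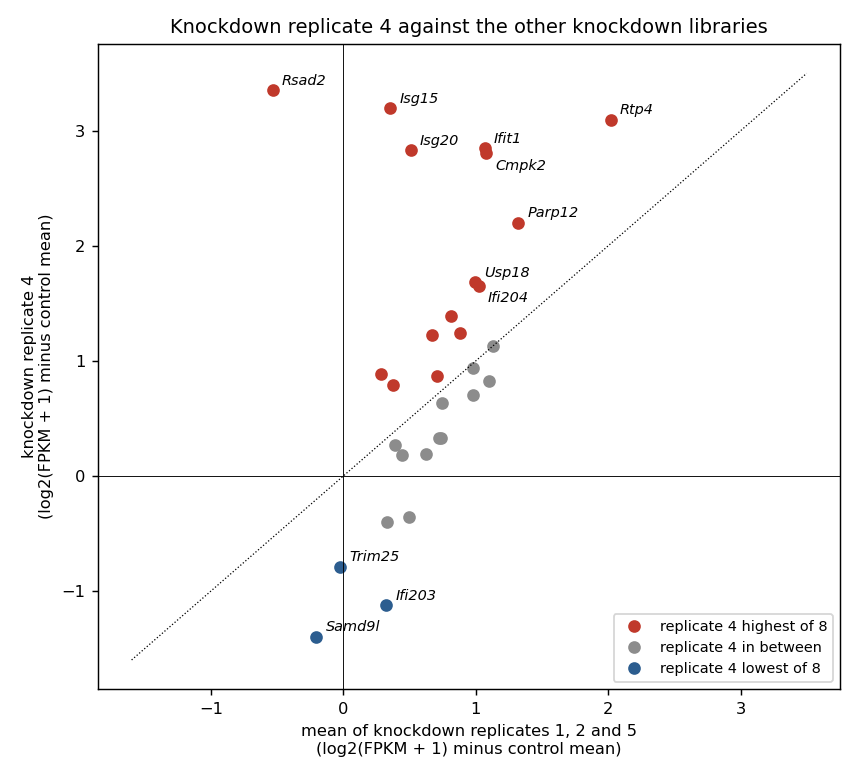
Each measured effector gene by its level in knockdown replicate 4 (vertical axis) and its mean level in knockdown replicates 1, 2 and 5 (horizontal axis), both as log2(FPKM + 1) minus the control mean; the dotted line marks equal values. Rsad2, Isg15 and Isg20 lie far above the line with values near 0 to 0.51 or below 0 on the horizontal axis, Rtp4 is high on both, and Samd9l, Ifi203 and Trim25 lie below it.

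The remaining libraries varied too. Relative to the control mean, the median over the 30 genes was 0.54, 0.996, 0.50 and 0.88 in knockdown replicates 1, 2, 5 and 4, and 0.26, −0.13, 0.25 and −0.39 in control replicates 1 to 4. Over all genes tested these medians were 0.105, 0.214, 0.105 and 0.108, and 0.0605, 0.00249, 0.035 and −0.119, in the same order. Knockdown replicate 2 was thus the highest and control replicate 4 the lowest over all genes too. Knockdown replicate 2 exceeded every control for 28 of the 30 genes, knockdown replicates 1, 5 and 4 for 19, 20 and 21. Control replicate 4 was the lowest of all 8 libraries for 19 of the 30. Shares of all genes were not counted for these positions. Control replicate 4 had the lowest FPKM sum over all identifiers, 572660, against 671732 to 762888 in the other libraries. It also had the lowest monocyte and macrophage marker sum, 176 FPKM, and the lowest sums of T cell and NK cell markers, 125 and 22.8 FPKM. Without it the median over the effector genes was 0.67 and 26 of 30 were positive. Without replicate 4 of both groups, the median was 0.52, 28 of 30 were positive, 0 were called and 15 separated the groups (50%, against 16.3% of all genes).

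Upstream genes of the pathway were measured in a list of 41. Of its 21 interferon genes, 15 were listed at 0 in all 8 libraries and only Ifng, the type II interferon, reached the filter; no other interferon gene exceeded 0.0765 FPKM in any library. Ifnb1, Ifna7 and Ifnab were each above 0 in a single library, at 0.038 FPKM in knockdown replicate 4, 0.0527 FPKM in control replicate 1 and 0.0279 FPKM in knockdown replicate 2, which is near the value of a single fragment. Of the 20 measured pathway genes 14 had a positive log2 change, with a median of 0.26 (11 of 20 after either scaling, median 0.11 and 0.10), and limma called 0, with 5 at an unadjusted p under 0.05 (25%, against 15.8% higher over all genes) and 1 called, Ifnar2, with array weights. The receptor chain gene Ifnar2 had 29.7, 35.6, 22.2 and 39.3 FPKM in the knockdown libraries, against 19.4, 18.6, 20.3 and 21.7 FPKM in the controls, without overlap (log2 change 0.61, adjusted p = 0.151). Its partner Ifnar1 had 19.7 ± 3.87 FPKM across the knockdown libraries and 20.6 ± 1.24 FPKM in the controls (SD, n = 4 each; log2 change −0.08, 95% interval −0.49 to 0.33). The kinase genes Jak1 and Tyk2 had log2 changes of 0.03 (−0.13 after median-of-ratios scaling) and −0.22 and did not separate the groups. Irf9, the DNA-binding subunit of ISGF3, had 37.9, 52.9, 40.7 and 47.2 FPKM in the knockdown libraries, against 37.2, 30.6, 30.98 and 25.04 FPKM in the controls. Its groups did not overlap, by a narrow margin (log2 change 0.52, adjusted p = 0.174). Ifnar2 and Irf9 were the only 2 of the 20 measured pathway genes that separated the groups (10%). This share was close to the 11.2% of all genes that were higher without overlap. Of the 7 inhibitor genes of the pathway, 3 had a positive log2 change and 4 a negative one, and none passed.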

How the data were processed

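Per the labels' protocols, splenic mononuclear cells gave RNA by mirVana extraction, sequenced as polyadenylated RNA on a NovaSeq. The authors deposited FPKM for 54018 identifiers in 8 columns. CASAVA and Cufflinks appear, without versions, in the submitters' processing notes; the sources used here give no aligner, build, annotation or strand setting. An FPKM table keeps no counts and moves with a library's most abundant transcripts. The steps between low values gave an estimate of depth, from single-transcript genes of 1500 bases or more.

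Names came from GENCODE M21 (GRCm38), which matched 53865 identifiers. The 12890 genes with 1 FPKM or more in 4 or more libraries were tested on log2(FPKM + 1), which understates changes of low genes. The test was limma 3.58.1 (R 4.3.3) with its trend option, no covariate, Benjamini-Hochberg adjustment and a threshold of 0.05, and the script was tested on simulated data. Promoter sequences are RefSeq's. Shared sequence was checked with 75-base words of each gene's longest GENCODE transcript. Tables were made with pandas 2.3.3 and numpy 2.4.6 under Python 3.11.15, and plots with matplotlib 3.10.9.

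The members, lists and tests were chosen with earlier results of these data known. All 31 genes are named. By rule, values of every library are given for called genes, the 12 smallest p, the 3 highest levels, negative changes and the Ifit, Mx and Parp paralogs; Isg15, Isg20, Rsad2, Herc6, Stat2 and Ifi44 were added after their values were seen. Marker lists of 9 cell types were compared by their sums. Alternatives changed the pseudocount (0.1 or 5), filter, scaling, trend, array weights, covariates, a block by replicate number and the libraries used; the erythroid covariate was added after seeing the data. Of the pathway list, 1 gene is counted but not reported here by itself.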

Additional observations from a re-analysis of the deposited data

Results flagged for a closer look

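In groups of 4 libraries, a library was singled out when its gap to the nearest other, as a share of the group's range, exceeded Dixon's 95% critical value. Chance singles out about 1 in 20 groups, and 5 of the 64 groups looked at had such a library. In 4 of the 5 it was knockdown replicate 4, with 181 FPKM of Isg15, 14.3 FPKM of Herc6, 89.05 FPKM of Rsad2 and 296 FPKM of Isg20. The fifth was control replicate 4, with 24.98 FPKM of Epsti1, below 49.4 to 49.9 FPKM in the other controls. The part of the erythroid and B cell levels of knockdown replicate 4 in these values was not tested gene by gene.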

How the results depend on the processing

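The number of effector genes called was 2 and moved with most settings. It was 1 with a pseudocount of 0.1 or median-of-ratios scaling, 9 with array weights (30%, against 5.19% of all genes) and 5 with the erythroid covariate. It was 0 with a pseudocount of 5, no filter, a mean of at least 5 FPKM, quantile normalization, the replicate block, the monocyte and macrophage or Xist covariate, or without both replicate 4 libraries, and 0 to 2 with 1 library left out. Rtp4 was called in 9 of 22 and Parp12 in 5 of 21 alternatives, with log2 changes of 1.34 to 2.63 and 0.70 to 2.11. The median log2 change over the effector genes, 0.777, stayed positive, with the values furthest below it at a pseudocount of 5 (0.521), a mean of at least 5 FPKM (0.518), the monocyte and macrophage covariate (0.431) and without both replicate 4 libraries (0.518). Of all genes 224 were called; 24, 2, 71 and 126 were with a pseudocount of 5, no filter, a mean of at least 5 FPKM and quantile normalization, 761 with array weights, 0 with the replicate block or the monocyte and macrophage covariate, 2 with Xist, 586 with the erythroid covariate, 120 without both replicate 4 libraries, and 8 to 333 with 1 library left out. Of the pathway genes 1 was called with array weights. The median over all genes was 0.13, −0.01 after median-of-ratios scaling and −0.03 after quantile normalization, where the effector median was 0.63 and 0.60.

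Deviations of same-numbered libraries had correlations of 0.163, 0.0469 and −0.118 for numbers 1, 2 and 4, against −0.149 to 0.148 for unlike numbers. Nothing in the labels says that a number is shared by litter or day. Whether the numbers pair the libraries is thus unknown, and the main test did not pair them. With the replicate block 16 of 30 effector genes had an unadjusted p under 0.05 (53.3%, against 16.2% of all genes) and their median was 0.92 (0.17 over all genes).

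Signs turned only in genes that were not called. Under the monocyte and macrophage covariate the log2 changes were −0.214 for Isg15, −1.27 for Rsad2, −0.209 for Isg20, −0.674 for Ube2l6, 0.195 for Trim25, 0.70 for Ifi203, 0.353 for Samd9l, 0.236 for Ifnar1 and 0.124 for Tyk2. Under the Xist covariate they were 0.000323 for Trim25, −0.00655 for Ifi27l2a, −0.184 for Trim30a, −0.151 for Epsti1 and −0.334 for Jak1. With array weights they were 0.00513 for Trim25, −0.0166 for Rsad2, 0.266 for Ifi203, 0.0569 for Ifnar1 and −0.0196 for Jak1. The B cell covariate gave −0.0889 for Rsad2, 0.179 for Ifi203 and 0.00767 for Ifnar1, and the erythroid covariate −0.16, 0.159 and 0.00133 for the same genes. Without both replicate 4 libraries they were 0.0817 for Trim25, −0.425 for Rsad2, 0.318 for Ifi203, 0.0986 for Ifnar1 and −0.0248 for Jak1. Median-of-ratios scaling gave −0.00721 for Epsti1 and −0.131 for Jak1, and quantile normalization −0.00187 and −0.121. With 1 library left out the ranges were −0.534 to 0.949 for Rsad2, −0.203 to 0.323 for Ifi203, −0.0926 to 0.33 for Epsti1, −0.133 to 0.0717 for Ifnar1 and −0.135 to 0.138 for Jak1. The cause of these turns was not tested. Levels of Ifi44 near or below 1 FPKM were not tested except without the filter.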
